A study of Mus musculus with 6 samples.

Results

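The fetal gene programme and cardiac stress genes examined here were Nppa, Nppb, Myh6, Myh7, Acta1, Actc1, Ankrd1, Ctgf and Fhl1. They were taken by name as every probe, other than controls, that the scanner files assign to 1 of these 9 genes, which gave 13 of the 41174 probes on the array and 9 of its 27745 distinct names. Transcript levels were compared between 3 wild type (WT) hearts and 3 hearts of TG-PKR1 mice. These mice overexpress the prokineticin receptor PKR1 (gene Prokr1) in cardiomyocytes under the alpha myosin heavy chain promoter. All 6 mice were males aged 12 weeks, and each heart was hybridized to its own single-dye (Cy3) Agilent array. The methods name a C57BL6/J background and littermate controls in a section that covers both the TG-PKR1 and the knockout mice. Whether that background and those controls apply to these 6 hearts is not stated. The titles of the 3 TG-PKR1 hearts all carry the same tag (TG1), whose meaning is not stated. The number of transgenic lines behind these 3 hearts is not given in the sources used here. The hearts are called A, B and C within a group, and the letters pair no animals. The Prokr1 probe was well above background on 0 of the 6 arrays, so these arrays give no usable value for the transgene. Whether that probe matches the transgene transcript was not tested. Because whole hearts were used, fewer cells of a type and less RNA per cell cannot be told apart in any of the values below.

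The fetal gene programme is the set of genes that the embryonic ventricle expresses, that fall after birth, and that return when the adult heart is overloaded or fails. Its classical members are the natriuretic peptides, the beta isoform of myosin heavy chain and skeletal alpha actin, and a fall of alpha myosin heavy chain usually goes with it. Ankrd1, Ctgf and Fhl1 respond to stretch of the muscle wall, and Ctgf is a widely used target of the YAP and TEAD transcription factors. In the adult mouse ventricle alpha myosin (Myh6) is the main isoform, whereas beta myosin (Myh7) prevails before birth.

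The promoters of 7 of these genes are shown because the same short elements are known to serve the programme in muscle cells. Each run holds the 250 bases before the annotated start, 5′ to 3′ on the gene's own strand, from RefSeq on GRCm38.p6, and capitals mark matches on either strand to 4 motifs. These were the MCAT element bound by TEAD factors (CATTCC), the GATA element (GATAA), the TATA box (TATAAA) and the CArG box bound by serum response factor. No match overlapped another motif. The windows lie at chr4:148000472-148000721 (plus strand) for Nppa, chr4:147985650-147985899 (plus) for Nppb, chr14:54966608-54966857 (minus) for Myh6, chr14:54994627-54994876 (minus) for Myh7, chr8:123894776-123895025 (minus) for Acta1, chr2:114052876-114053125 (minus) for Actc1 and chr19:36119845-36120094 (minus) for Ankrd1. Myh7 and Fhl1 each have 2 annotated starts, of which the first listed is used here for Myh7; the window before the other Myh7 start held 0 MCAT elements.
Nppa: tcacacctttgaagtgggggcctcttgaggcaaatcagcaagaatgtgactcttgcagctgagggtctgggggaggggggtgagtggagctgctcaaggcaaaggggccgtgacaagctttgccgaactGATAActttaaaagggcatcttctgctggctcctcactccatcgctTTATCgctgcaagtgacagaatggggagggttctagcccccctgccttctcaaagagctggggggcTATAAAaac
Nppb: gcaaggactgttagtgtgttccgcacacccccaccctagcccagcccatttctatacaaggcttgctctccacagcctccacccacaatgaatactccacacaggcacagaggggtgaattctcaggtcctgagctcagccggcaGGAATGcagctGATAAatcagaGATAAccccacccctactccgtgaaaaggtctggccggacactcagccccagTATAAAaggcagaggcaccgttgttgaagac
Myh6: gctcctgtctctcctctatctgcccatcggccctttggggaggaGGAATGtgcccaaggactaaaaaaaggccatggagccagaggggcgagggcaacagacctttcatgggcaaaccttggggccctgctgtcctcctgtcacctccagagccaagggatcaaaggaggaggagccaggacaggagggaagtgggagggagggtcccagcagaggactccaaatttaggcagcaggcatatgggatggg
Myh7: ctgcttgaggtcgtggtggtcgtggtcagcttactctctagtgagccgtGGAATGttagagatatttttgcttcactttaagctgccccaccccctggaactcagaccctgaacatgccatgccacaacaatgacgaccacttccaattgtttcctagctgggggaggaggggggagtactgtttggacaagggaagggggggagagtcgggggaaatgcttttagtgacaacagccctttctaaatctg
Acta1: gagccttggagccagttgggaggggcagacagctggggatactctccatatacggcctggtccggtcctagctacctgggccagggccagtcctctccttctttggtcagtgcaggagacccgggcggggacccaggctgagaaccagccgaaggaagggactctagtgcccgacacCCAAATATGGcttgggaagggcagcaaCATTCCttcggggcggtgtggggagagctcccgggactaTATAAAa
Actc1: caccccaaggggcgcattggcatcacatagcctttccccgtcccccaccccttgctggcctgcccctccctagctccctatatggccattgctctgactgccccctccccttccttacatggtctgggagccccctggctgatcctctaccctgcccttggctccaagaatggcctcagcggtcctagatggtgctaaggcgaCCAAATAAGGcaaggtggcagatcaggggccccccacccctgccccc
Ankrd1: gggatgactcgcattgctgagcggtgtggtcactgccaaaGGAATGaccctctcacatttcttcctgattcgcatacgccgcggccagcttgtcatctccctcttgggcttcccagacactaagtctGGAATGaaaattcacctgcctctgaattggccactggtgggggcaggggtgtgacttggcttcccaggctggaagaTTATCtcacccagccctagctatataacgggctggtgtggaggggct
The Acta1 window held a CArG box 73 bases before the start and an MCAT element 46 bases before it, and the Actc1 window held a CArG box 47 bases before the start. The window before the first start of Fhl1, not printed, held a CArG box at 102 bases and a TATA match at 156 bases, and the window before its second start held 0 matches to any of the 4 motifs. The reference used here held no promoter window for Ctgf, so its motifs were not read. CArG boxes occurred in 1.47% of the 32851 windows of this length in the table. MCAT elements occurred once in the Nppb, Myh6, Myh7 and Acta1 windows and 2 times in the Ankrd1 window, beside 12.6% of all windows with at least 1. GATA elements occurred 2 times in Nppa, 2 times in Nppb and 1 time in Ankrd1, beside 22.6% of all windows, and a TATA box was found in the printed windows of Nppa, Nppb and Acta1, beside 12.4%. The Myh6 window is part of the endogenous gene, whose promoter also gives the transgene its cardiomyocyte expression.

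All 13 probes were well above background on all 6 arrays, none was saturated, and all were among the 20000 probes with the highest median signal that were tested. None of them passed the test of a difference between the groups. limma called 0 of the 13 probes in either direction, with an adjusted p of 0.9999 for each, where it called 0.095% of all probes lower and 0% higher in TG-PKR1 hearts. At an unadjusted p under 0.05 it counted 0 of the 13, beside 2.38% of all probes. Significance Analysis of Microarrays (SAM), the test named by the methods, also called 0 of the 13, beside 54 probes lower and 0 higher in all. The groups overlapped for every one of the 13 probes, where 5.41% of all probes had groups that did not overlap. The TG-PKR1 mean was the higher one for 9 of the 13 probes, with a median log2 difference of 0.10, beside 58.2% of all probes with a higher TG-PKR1 mean and a median of 0.03 over all probes. The counts of higher means in the lists below are to be read against that same share. For the lead probe of each gene, the brightest of its probes, 6 of 9 means were higher, and the median was 0.14. Under 75th percentile scaling Nppa, Myh7 and Fhl1, the lower ones here, turned higher too, so every lead mean was higher. The median over all probes was -0.02 under that scaling.

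**Figure D1:**
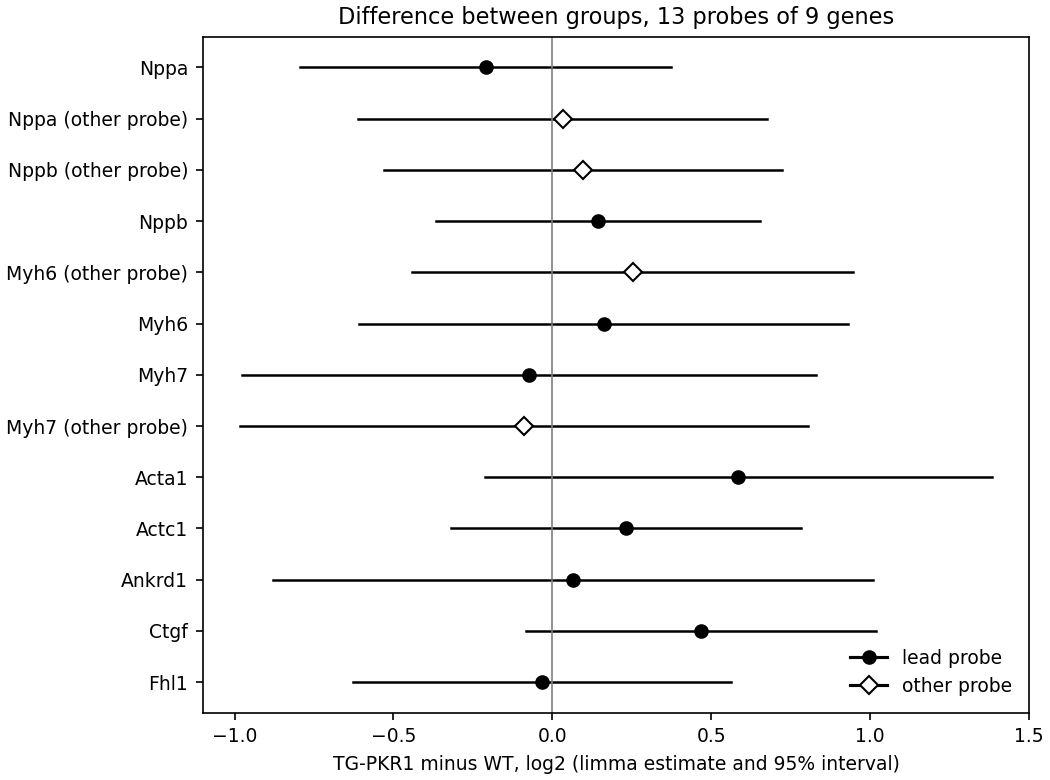
Difference between TG-PKR1 and WT hearts in log2 signal (x axis) for each of the 13 probes (y axis), as the limma estimate (lead probes filled, other probes open) with its 95% interval, 3 hearts per group. Every interval crosses 0, and those of Myh7 and Ankrd1 are the widest of the lead probes.

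Nppa encodes atrial natriuretic peptide, a hormone that cardiomyocytes release under stretch and that the ventricle re-expresses in hypertrophy. Its lead probe lies at chr4:146845715-146845774 (mm8, the build of the files). Its normalized log2 signal, given here and below in the order of the letters, was 16.87, 17.05 and 16.76 in WT hearts. In TG-PKR1 hearts it was 17.29, 16.41 and 16.35. Under this loess scaling the highest and the lowest value were both in TG-PKR1 hearts, an order that turned with the scaling: TG-PKR1 heart A was the highest in 1 of 6 scalings. The log2 difference, TG-PKR1 minus WT, was -0.21 (SE 0.26, 95% interval -0.79 to 0.37). The second probe, at chr4:146844738-146844900, read 15.28, 14.97 and 15.21 in WT and 15.86, 14.71 and 14.98 in TG-PKR1 hearts, a log2 difference of 0.03 (SE 0.28). Its extent on the genome is 163 bases. Under loess both probes placed TG-PKR1 heart A above all others, and the sign of the mean difference changed between them.

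Nppa is the one member with repeated spots on the array, 10 for each of its probes, so the spread among spots could be given beside the spread among hearts. The SD of the log2 signal among spots of the lead probe was 0.06 to 0.18 within an array, and the SD among the 6 hearts was 0.37. For the second probe these were 0.06 to 0.23 and 0.40. The spot SD does not hold the error of labelling, hybridization, scanning or scaling, and the range of the lead probe over the 6 hearts was between 0.54 and 0.95 log2 units across 6 scalings. Nppa is abundant in atria, so atrial markers are given beside it. Log2 signals of Sln, the atrial inhibitor of the calcium pump, were 15.27, 15.87 and 15.08 in WT and 15.66, 15.26 and 14.92 in TG-PKR1 hearts, highest in WT heart B and lowest in TG-PKR1 heart C. Myl7, the atrial regulatory light chain, had 15.74, 16.37 and 15.77 in WT and 16.19, 15.90 and 15.47 in TG-PKR1 hearts, with the same 2 hearts at the ends. Other atrial markers ordered the hearts differently. Myl4, the atrial essential light chain, read 14.35, 14.62 and 14.81 in WT and 15.09, 14.29 and 14.58 in TG-PKR1 hearts, highest in TG-PKR1 heart A and lowest in heart B. Kcnj3, a potassium channel subunit, was highest in TG-PKR1 heart C and had the largest log2 difference of the list at 0.22, and Bmp10 had the smallest at -0.20. Of the 7 atrial markers, 3 had a higher and 4 a lower TG-PKR1 mean, and the sum of their signals on the linear scale ranged from 117521 to 172673 in WT and from 103003 to 163801 in TG-PKR1 hearts. The part of atrial tissue in the Nppa values was not tested.

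Nppb encodes B-type natriuretic peptide, the ventricular counterpart used as a marker of wall stress, and its gene lies next to Nppa with 13516 bases between them. The lead probe, at chr4:146830180-146830239, read 12.44, 12.46 and 13.04 in WT and 12.95, 12.99 and 12.45 in TG-PKR1 hearts. Each group held values near 12.45 and values near 13, so the groups overlapped throughout. The log2 difference was 0.14 (SE 0.22, 95% interval -0.37 to 0.65), and the second probe, at chr4:146829755-146829814, gave 0.10 (SE 0.27). Its per-heart log2 values were 11.69, 11.75 and 12.28 in WT and 12.25, 12.34 and 11.42 in TG-PKR1 hearts, with WT heart C, TG-PKR1 heart A and TG-PKR1 heart B again above the other 3.

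**Figure D2:**
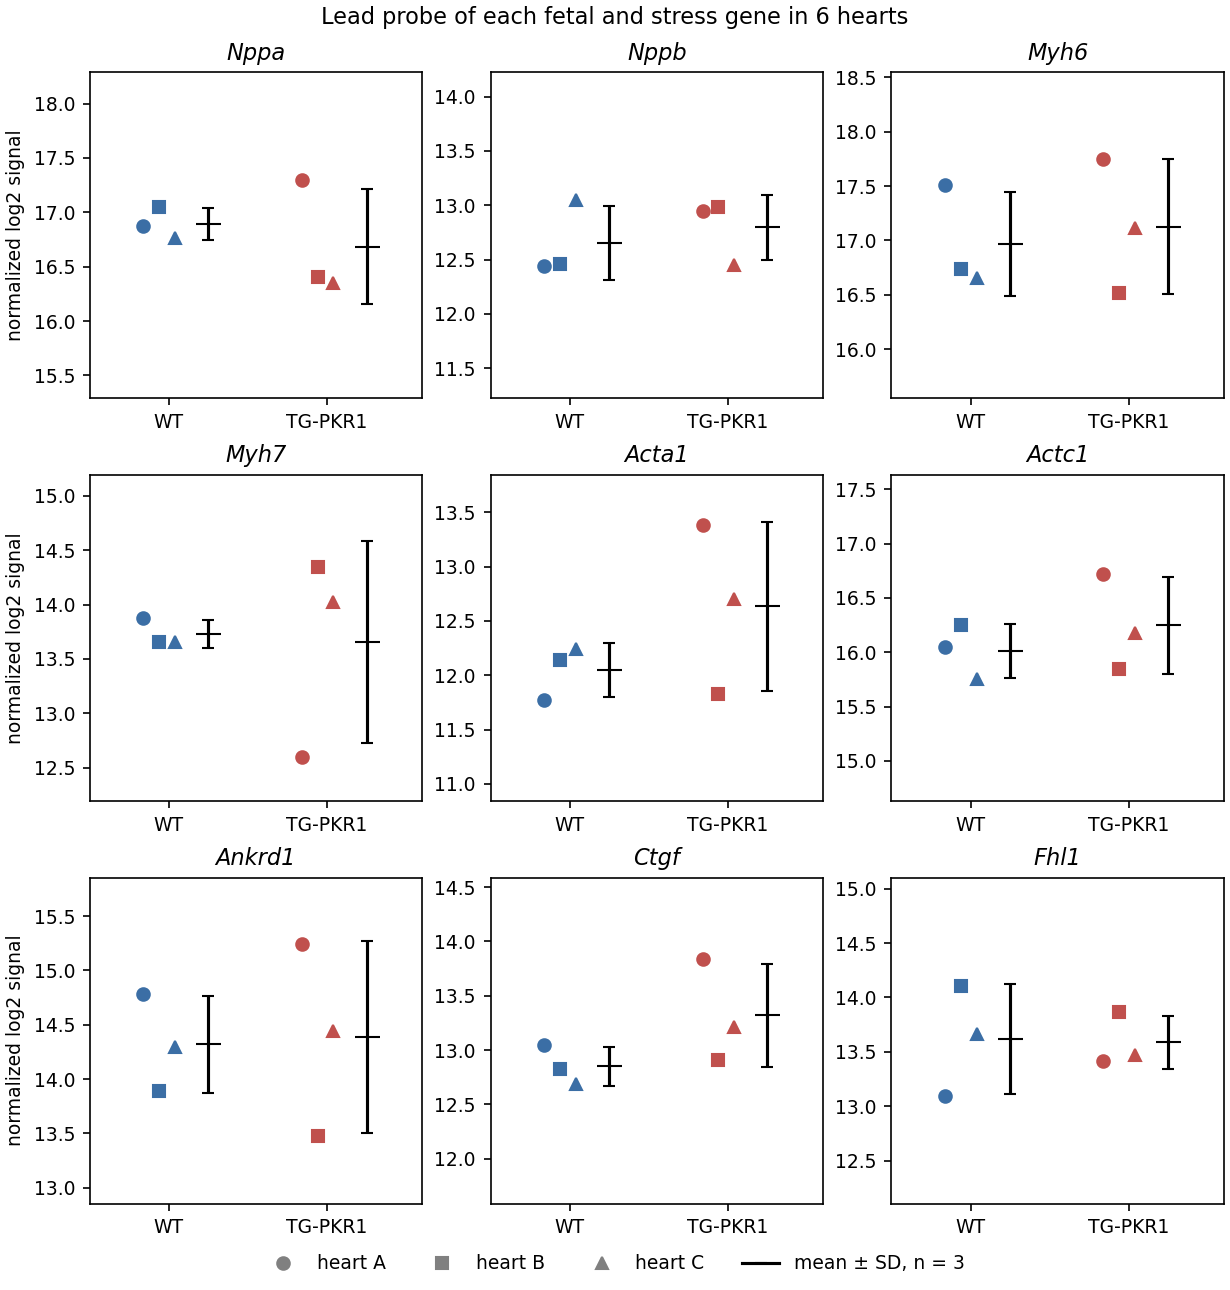
Normalized log2 signal (y axis, 3 log2 units high in every panel) of the lead probe of each of the 9 genes in the 6 hearts, by group (x axis). Symbols mark hearts A, B and C, which are not paired between groups, and black bars give the mean ± SD (n = 3); TG-PKR1 heart A is the highest for Nppa, Myh6, Acta1, Actc1, Ankrd1 and Ctgf and the lowest for Myh7.

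Other parts of the natriuretic peptide system did not pass the test. Of 10 genes listed, 7 were among the tested probes, and limma called 0 of them, with 5 means higher and 2 lower and a median log2 difference of 0.18. This median was -0.03 without WT heart B, 0.10 without WT heart C, 0.09 without TG-PKR1 heart C and 0.08 with the scan slope as a block. Corin, the protease that matures atrial natriuretic peptide, had the largest log2 difference at 0.44 (WT 10.60, 11.28 and 10.71, TG-PKR1 11.13, 11.25 and 11.53). Npr3, the clearance receptor, had the lowest at -0.10. The lead probes of Npr1, the guanylyl cyclase receptor for both peptides, and of Pde5a were well above background on 1 array each and that of Nppc on 0.

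Myh6 encodes alpha myosin heavy chain, the fast adult ventricular motor. Its lead probe, at chr14:53900628-53900687 (minus strand), read 17.51, 16.73 and 16.65 in WT and 17.75, 16.52 and 17.12 in TG-PKR1 hearts. WT heart A and TG-PKR1 heart A were the high ones, and the log2 difference was 0.16 (SE 0.34, 95% interval -0.61 to 0.93). The second Myh6 probe, whose ends lie at chr14:53898964-53900549, gave 0.25 (SE 0.30), from 16.44, 15.94 and 15.58 in WT and 16.81, 15.73 and 16.17 in TG-PKR1 hearts. The files list an accession of Myh7 beside that of Myh6 for both of these probes, so a share of Myh7 transcript in their signal was not tested.

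Myh7 encodes beta myosin heavy chain, the slow fetal isoform whose rise is a hallmark of the hypertrophied mouse heart. The lead probe, at chr14:53924898-53924957 (minus strand), read 13.88, 13.66 and 13.65 in WT hearts, which lay within 0.23 log2 units of each other. In TG-PKR1 hearts it read 12.60, 14.35 and 14.02. Heart A was thus below and hearts B and C were above all 3 WT hearts, and the SD was 0.93 in TG-PKR1 against 0.13 in WT hearts. The mean log2 difference was -0.07 (SE 0.40, 95% interval -0.98 to 0.83). The other Myh7 probe, shifted by 5 bases along the same site, read 13.57, 13.41 and 13.28 in WT and 12.30, 14.05 and 13.64 in TG-PKR1 hearts, and since both probes share a site they are not independent readings.

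Set against each other within a heart, the myosin isoforms had a wider range among TG-PKR1 than among WT hearts, a difference in spread that was not tested. The Myh7 minus Myh6 log2 difference of the lead probes was -3.63, -3.08 and -3.00 in WT and -5.15, -2.17 and -3.09 in TG-PKR1 hearts. It compares hearts and not the abundance of the isoforms, because each probe binds with its own strength. The means were -3.24 ± 0.35 in WT and -3.47 ± 1.53 in TG-PKR1 hearts (SD, n = 3), and the values overlapped. The balance spanned 0.63 log2 units in WT and 2.99 in TG-PKR1 hearts, a 7.92-fold range. Without TG-PKR1 heart A the other 5 hearts spanned 1.47 log2 units. TG-PKR1 heart A minus the mean of the other 5 hearts was -2.16 log2 units, and it lay between -2.16 and -2.13 by the 4 pairings of Myh7 and Myh6 probes. TG-PKR1 heart B lay at the other end, with the highest balance of the 6 hearts.

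**Figure D3:**
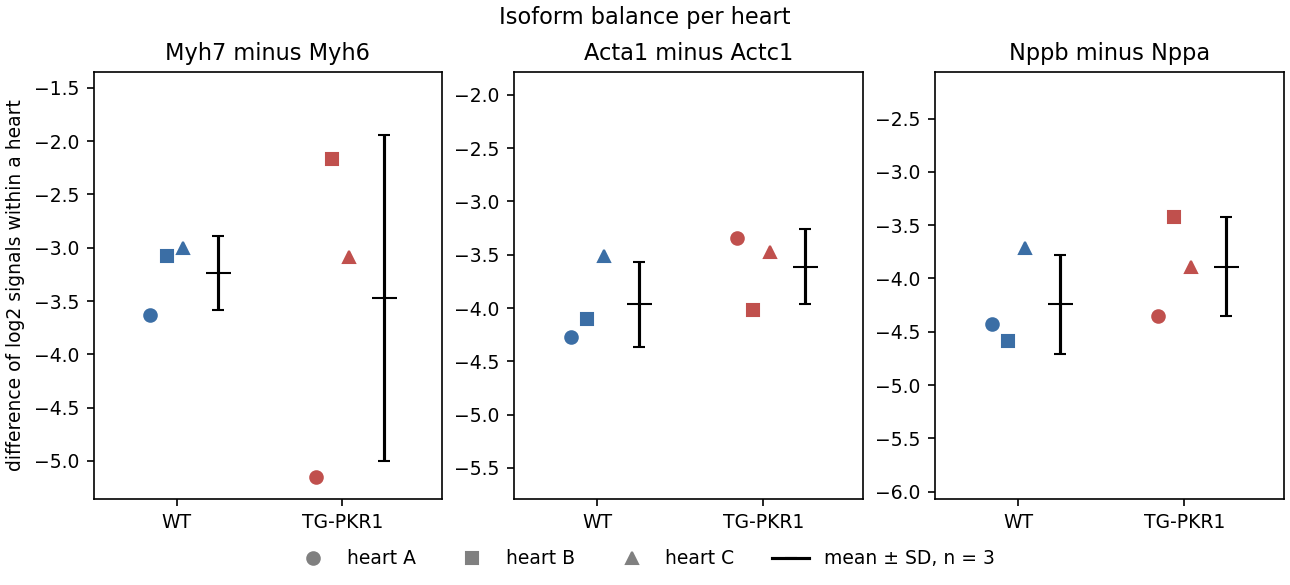
Isoform balance per heart, as the difference of the log2 signals of 2 lead probes within a heart (y axis) for Myh7 minus Myh6, Acta1 minus Actc1 and Nppb minus Nppa, by group (x axis), with the mean ± SD (n = 3) in black. The TG-PKR1 hearts run from -5.15 to -2.17 for the myosins, on both sides of the WT hearts, and the groups overlap in all 3 panels.

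The myosin genes also carry microRNAs in their introns that take part in the switch between the isoforms, and their mature sequences show why the 3 are treated as a family. The seed, bases 2 to 8, is in capitals, with sequences from RefSeq on GRCm38.p6.
mmu-miR-208a-3p (in Myh6): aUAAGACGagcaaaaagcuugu
mmu-miR-208b-3p (in Myh7): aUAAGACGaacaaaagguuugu
mmu-miR-499-5p (in Myh7b): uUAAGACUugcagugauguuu
The first 2 share the seed UAAGACG, and the third has UAAGACU. The array measured only the host transcripts, of which Myh6 and Myh7 are given above and Myh7b was not matched to a probe. Regulators of the myosin switch, listed after the data had been seen, gave 7 tested genes of 10 and 0 calls by limma. The thyroid hormone receptor Thra, which activates Myh6 and represses Myh7, had a log2 difference of -0.10 (SE 0.23), from 11.88, 11.92 and 11.90 in WT and 11.27, 12.20 and 11.92 in TG-PKR1 hearts. Thrap1 (Med13), a known target of miR-208a, had -0.16, and its TG-PKR1 heart A value of 7.37 was the lowest of the 6. Dio2, the deiodinase that makes active thyroid hormone, had the smallest value of the list at -1.39 (SE 0.20, limma adjusted p 0.081), with 8.56, 8.45 and 8.84 in WT and 7.61, 7.07 and 6.9995 in TG-PKR1 hearts. It was the 1 gene of the 7 whose hearts did not overlap, beside 5.41% of all probes. Purb, a repressor of muscle genes, had the highest at 0.09. Dio2 is also a brown fat gene, and the part of fat in this difference was not tested. The adipocyte markers moved the same way, with a median log2 difference of -1.93 over 7 tested genes, from -3.23 for Ucp1 to -0.72 for Fabp4, and limma called Adipoq, Plin1, Cidec and Ucp1 lower (adjusted p 0.034 to 0.045), calls that several other settings did not keep since they called 0 probes in all.

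Acta1 encodes skeletal alpha actin, which the fetal and the overloaded ventricle express beside the cardiac isoform. Its probe, at chr8:126778387-126778446 (minus strand), read 11.77, 12.14 and 12.24 in WT and 13.38, 11.83 and 12.70 in TG-PKR1 hearts. Hearts A and C of the TG-PKR1 group lay above all WT hearts, and heart B lay below 2 of them. The log2 difference of 0.59 (SE 0.35, 95% interval -0.21 to 1.38) was the largest of the 9 genes. Actc1, the cardiac alpha actin of the adult sarcomere, was read by a probe whose ends lie at chr2:113739716-113740639 (minus strand), at 16.04, 16.25 and 15.75 in WT and 16.72, 15.84 and 16.18 in TG-PKR1 hearts. Its log2 difference was 0.23 (SE 0.24, 95% interval -0.32 to 0.78), again with heart A on top.

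The Acta1 minus Actc1 balance was -4.27, -4.11 and -3.52 in WT and -3.34, -4.01 and -3.48 in TG-PKR1 hearts. The highest 2 values were in TG-PKR1 hearts, but heart B lay between the WT hearts, and the means of -3.96 ± 0.40 and -3.61 ± 0.35 (SD, n = 3) overlapped. The range of 0.93 log2 units over the 6 hearts was far smaller than that of the myosins. The Nppb minus Nppa balance was -4.43, -4.59 and -3.72 in WT and -4.35, -3.42 and -3.90 in TG-PKR1 hearts, with means of -4.24 ± 0.46 and -3.89 ± 0.46 (SD, n = 3). The group difference of this balance, 0.35, was 0.31, 0.11 and 0.06 by the other pairings of Nppb and Nppa probes. Leaving out 1 heart, it ran from 0.12 to 0.62, and that of Acta1 minus Actc1 from 0.20 to 0.58. Since Acta1 is also the actin of skeletal muscle, the markers of that tissue were read beside it. Of 13 such genes 8 were among the tested probes, with a median log2 difference of 0.12 and 0 calls. Among the defining ones, the lead probe of Pvalb was well above background on 0 arrays, that of Myh1 on 1 and that of Myh2 on 2, while those of Myh4, Myh8 and Atp2a1 were so on all 6. Among the 8 tested genes Atp2a1, the calcium pump of fast fibres, had the largest log2 difference at 0.46 (WT 13.33, 12.35 and 12.03, TG-PKR1 13.76, 12.18 and 13.16), highest in TG-PKR1 heart A. Acta1 was also highest in that heart, but its lowest value was in WT heart A, the highest WT heart for Atp2a1. Myh8, the perinatal myosin, had the smallest difference of the 8 at -0.17 (WT 16.99, 17.61 and 15.96, TG-PKR1 17.16, 16.496 and 16.40). Myh4, a fast myosin, ranged from 15.38 in WT heart C to 16.54 in TG-PKR1 heart A. The sum of the tested skeletal markers on the linear scale was 125182 to 308370 in WT and 156267 to 277402 in TG-PKR1 hearts, and Myh4 and Myh8 carry most of it. Probes bind with their own strength, and whether the Myh4 and Myh8 probes also read other myosin transcripts was not tested, so the sum describes these probes and not the amount of skeletal muscle. The part of skeletal muscle transcripts in the Acta1 values was not tested.

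The wider set of contractile isoforms did not part the groups either. Of 15 genes, 13 were tested, 11 had a higher and 2 a lower TG-PKR1 mean, and limma called 0, with a median log2 difference of 0.06. The ends of the list were Acta2, smooth muscle actin, at 0.44 (WT 13.10, 12.76 and 12.67, TG-PKR1 13.69, 12.76 and 13.39) and Myl1, a light chain of fetal and fast muscle, at -0.39 (WT 11.97, 12.95 and 12.51, TG-PKR1 12.54, 12.10 and 11.62). With each gene set against its mean in WT hearts, the median over this list was 0.50 in TG-PKR1 heart A, -0.22 in heart B and -0.01 in heart C. The same median over the 12 cardiomyocyte markers, all tested and all well above background on 6 arrays, was 0.34, -0.12 and 0.02, and their log2 differences ran from -0.13 for Myom2 to 0.27 for Actn2.

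Ankrd1 encodes CARP, a titin-bound sarcomeric protein that rises within hours of stretch. Its probe, at chr19:36177463-36177522 (minus strand), read 14.78, 13.89 and 14.29 in WT and 15.24, 13.48 and 14.44 in TG-PKR1 hearts. Both the highest and the lowest heart were transgenic, the 6 hearts spanned 1.76 log2 units, a 3.39-fold range, and the log2 difference was 0.07 (SE 0.41, 95% interval -0.88 to 1.01). Ctgf, a secreted matricellular protein also known as Ccn2, was read at chr10:24287891-24287950, with 13.05, 12.82 and 12.69 in WT and 13.84, 12.91 and 13.22 in TG-PKR1 hearts. Its log2 difference of 0.47 (1.38-fold, SE 0.24, 95% interval -0.08 to 1.02) was second to that of Acta1, and only TG-PKR1 heart B fell among the WT hearts. Fhl1, a LIM protein of the stretch sensor at titin, was read at chrX:53140029-53140088, with 13.09, 14.10 and 13.66 in WT and 13.42, 13.87 and 13.47 in TG-PKR1 hearts. For Fhl1 the WT hearts held both ends, and the log2 difference was -0.03 (SE 0.26, 95% interval -0.63 to 0.56).

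Of the genes around these stretch sensors, none passed the test either. Of 20 genes of stretch, serum response factor and YAP signaling, 16 were tested, 9 means were higher and 7 lower, limma called 0, and the median log2 difference was 0.04. Amotl2, a YAP target, had the highest difference at 0.30 (WT 9.44, 8.80 and 8.40, TG-PKR1 9.26, 9.26 and 9.02), and Nov, a relative of Ctgf, had the lowest at -0.24. Another gene of that family and YAP target, Cyr61, had 0.06, from 10.61, 9.65 and 9.81 in WT and 10.48, 9.96 and 9.79 in TG-PKR1 hearts. TG-PKR1 heart A, the highest for Ctgf, was the highest for none of Amotl2, Nov and Cyr61. Vcl, which links actin to the membrane, was the 1 gene of 16 whose hearts did not overlap, beside 5.41% of all probes, and was named after its values were seen. It read 10.09, 10.1543 and 10.02 in WT and 10.41, 10.1592 and 10.53 in TG-PKR1 hearts, so the nearest hearts nearly touched.

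Other arms of the hypertrophic response are described by list, each with 0 genes called by limma. Of the 24 genes of hypertrophy signaling, such as calcineurin, NFAT, MEF2 and GATA factors, 16 means were higher and 8 lower, with a median log2 difference of 0.06 between -0.48 for Ppp3r1, a calcineurin subunit, and 0.34 for Nfatc3. Of 21 genes of injury and wall stress, 18 were tested, 7 were higher and 11 lower, with a median of -0.07 between -0.33 for Col1a1 and 0.07 for Serpina3n. The injury median was -0.18 under 75th percentile scaling and -0.11 in the table of the authors. Of 12 genes of the adult programme, 9 were higher and 3 lower, with a median of 0.06 that became 0.16 without TG-PKR1 heart B, 0.13 without WT heart B, 0.12 without TG-PKR1 heart A and 0.10 without WT heart A, and 0.27 under 75th percentile scaling. Its ends were Ppargc1a, the coactivator of mitochondrial genes, at 0.49 and Pdk4, which limits glucose oxidation, at -0.70 (WT 13.82, 13.51 and 14.25, TG-PKR1 13.63, 12.73 and 13.11).

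The 8 genes of fetal ion channels and metabolism had 4 higher and 4 lower means, a median log2 difference of -0.01, and ends at -0.14 for Cacna1h, the fetal calcium channel, and 0.44 for Acta2. Of 12 immediate early genes, the first transcripts to respond to load, 11 were tested, 4 were higher and 7 lower, with a median of -0.06. Egr1 had the lowest value at -0.59 (WT 9.56, 8.92 and 9.51, TG-PKR1 8.601, 8.92 and 8.72) and Nr4a1 the highest at 0.61 (WT 12.43, 11.66 and 11.83, TG-PKR1 12.79, 12.45 and 12.50). The hearts of both genes did not overlap between the groups, 2 of 11 beside 5.41% of all probes, and neither passed the adjusted threshold. For Egr1 the nearest hearts nearly touched, at 8.9186 in WT heart B and 8.9157 in TG-PKR1 heart B.

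**Figure D4:**
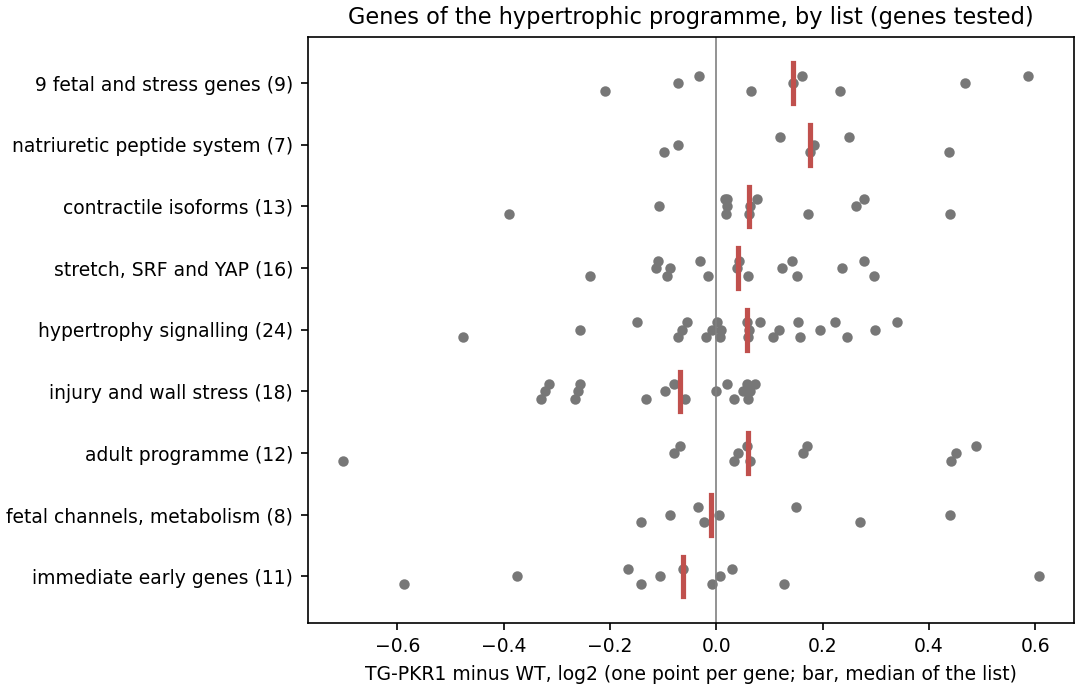
TG-PKR1 minus WT log2 difference (x axis) of the lead probe of every tested gene, 1 point per gene, for the 9 genes and 8 related lists (y axis, number of genes tested in parentheses), with a bar at the median of each list. The medians lie between -0.07 and 0.18 under the loess scaling shown, and no gene shown passed limma's adjusted threshold.

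The spread between hearts was wide for most of these genes. The range of the lead probe over the 6 hearts was 0.60 log2 units for Nppb, 0.95 for Nppa, 0.97 for Actc1, 1.01 for Fhl1, 1.15 for Ctgf, 1.24 for Myh6, 1.61 for Acta1, 1.75 for Myh7 and 1.76 for Ankrd1, beside a median of 0.57 over all probes. Of the 9 genes, 7 had their highest or lowest value in TG-PKR1 heart A. In that heart 7 of 9 lead probes lay more than 0.5 log2 units from the mean of the other 5 hearts, where 8.16% of all probes did. The same count was 4 in WT heart A, 2 in WT heart B, 0 in WT heart C, 4 in TG-PKR1 heart B and 1 in TG-PKR1 heart C, with 8.57% to 12.0% of all probes in those hearts. That count of 7 belongs to the loess scaling. It was 5 with normexp and quantiles and 4 with each of the other 4 scalings named below. The share of all probes was computed for loess only, so these counts have no such share beside them. Under loess the deviations of TG-PKR1 heart A were -1.31 for Myh7, 1.24 for Acta1, 1.07 for Ankrd1, 0.90 for Ctgf, 0.85 for Myh6, 0.71 for Actc1 and 0.61 for Nppa.

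**Figure D5:**
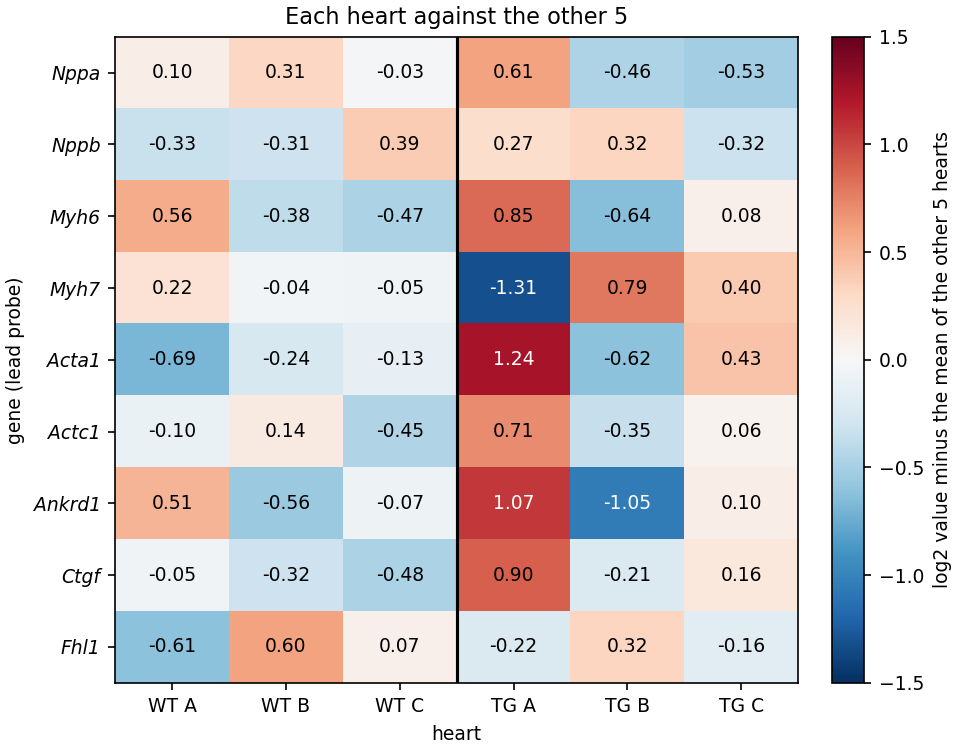
Log2 signal of each lead probe (rows) in each heart (columns) minus the mean of the other 5 hearts, printed in the cells and coloured from blue (below) to red (above), with a line between the WT and TG-PKR1 hearts. TG-PKR1 heart A has the largest values, from -1.31 for Myh7 to 1.24 for Acta1, and TG-PKR1 heart B is lower for Ankrd1 (-1.05) and higher for Myh7 (0.79).

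Some of these deviations did not depend on the scaling and others did. With the median signal scaled by loess, by quantiles or to the 75th percentile, with 2 background-corrected signals and in the table of the authors, Myh7 was lowest and Acta1 highest in TG-PKR1 heart A in 6 of 6. The Myh7 deviation stayed between -1.79 and -1.31 and that of Acta1 between 0.80 and 1.24, and the Myh7 minus Myh6 balance of that heart was lowest in 6 of 6, with a deviation between -2.16 and -1.73. Actc1, Ankrd1 and Ctgf were highest in heart A in 5 of 6. Myh6 was highest there in 2 of 6 and Nppa in 1 of 6, the loess scaling given above, so the order of the hearts for these bright probes depends on the scaling.

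The arrays also differed in a scan setting. The file headers give a low-gain slope of 8.57 to 8.73 for WT heart A and TG-PKR1 hearts B and C and of 1 for WT hearts B and C and TG-PKR1 heart A. A slope above 1 was read here as a second scan at low gain, scaled up, but the sources used here do not describe the scanning, so the 2 kinds of array were defined by the slope. Low-gain values were recorded in 3 hearts for the lead probes of Nppa, Myh6, Myh7, Actc1 and Ankrd1. They were recorded in 2 hearts for Ctgf and Fhl1 and in 1 for Acta1 and Nppb. The 75th percentile of the signal was 11.4 to 14.1 times the background on the former and 2.08 to 3.97 times on the latter. Within the arrays of high slope (1 WT heart, 2 TG-PKR1 hearts) the log2 difference was 0.31 for Myh7, -0.70 for Myh6, 0.49 for Acta1, -0.82 for Ankrd1, 0.02 for Ctgf, -0.49 for Nppa and 0.58 for Fhl1. Within the others (2 WT hearts, 1 TG-PKR1 heart) it was -1.06, 1.06, 1.19, 1.15, 1.08, 0.39 and -0.46 in the same order. The difference thus changed sign between the 2 kinds of array for Myh7, Myh6, Ankrd1, Nppa and Fhl1, and kept its sign for Acta1 and Ctgf. Nppb had 0.28 and 0.19, and Actc1 -0.03 and 0.72. The slope and TG-PKR1 heart A cannot be told apart among TG-PKR1 hearts, since heart A is the only transgenic heart with a slope of 1. On the 1 slide that carried both groups, at the same slope, TG-PKR1 heart A minus WT heart B was -1.06 for Myh7, 1.24 for Acta1 and -2.08 for the Myh7 minus Myh6 balance.

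Genes whose pattern over the 6 hearts was closest to a member were sought among 18781 bright probes, for the 6 members that ranged by more than 1 log2 unit. Likeness was the root mean square of the differences between per-heart deviations from each gene's own mean, and it is a description over 6 hearts that share their arrays. For Myh7 the closest were Mkrn2 (0.16 log2 units), 1110018G07Rik (0.17) and Pcdh17 (0.19), and Mkrn2 read 10.15, 9.88 and 9.95 in WT and 8.92, 10.20 and 10.30 in TG-PKR1 hearts. For Acta1 they were Popdc3 (0.16), D19Wsu162e (0.17) and Laptm4b (0.20), and Laptm4b read 9.06, 9.16 and 9.27 in WT and 10.41, 9.17 and 10.23 in TG-PKR1 hearts. For Ctgf they were Tuba3a (0.06), Ppp1r3c (0.07) and Tuba8 (0.08).

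The other members had neighbours of different kinds. For Myh6 they were Dnaja4 (0.08), Tsc22d3 (0.08), a leucine zipper gene induced by glucocorticoids, and LOC627563 (0.11), and Tsc22d3 read 12.52, 11.86 and 11.70 in WT and 12.70, 11.62 and 12.31 in TG-PKR1 hearts. For Ankrd1 they were Cdv3 (0.19), Atp5b (0.20), the catalytic subunit of the mitochondrial ATP synthase, and Wnk1 (0.20). For Fhl1 they were Cyb5r4 (0.07), Dfna5h (0.08) and Rab6 (0.08). Among the 9 genes themselves the closest pairs were Actc1 with Ctgf (0.18), Ankrd1 with Myh6 (0.22) and Ctgf with Myh6 (0.25).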

How the data were processed

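RNA from 3 WT and 3 TG-PKR1 hearts was hybridized to 1 Agilent array each. For every spot the authors deposited the fluorescence intensity, extracted with Agilent Feature Extraction 9.5.1.1 and not normalized between arrays, with probe positions on mm8. A second deposited file holds the authors' own log2 values for the brighter probes, with repeated probes merged and LOWESS as the scaling. It served as an alternative. All its columns were matched to a heart. Groups were taken from the labels. Median signals without background subtraction were put on the log2 scale, without control or outlier spots, and loess (span 0.3, 4 iterations) removed the trend of each array's log ratio to the median profile of all 6. The mean over a probe's spots was used, and the 20000 brightest probes were kept, as in the methods.

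TG-PKR1 and WT hearts were compared with limma 3.58.1 (lmFit and eBayes, R 4.3.3, with the package data.table at version 1.17.8), with Benjamini-Hochberg adjustment over the 20000 probes at 0.05. SAM (two-class, unpaired) used all 20 assignments of hearts to groups, at the smallest delta with a median of 0 false calls. The labels do not say from which litters the mice came, so whether the hearts are independent is not known. The limma p-values set the group difference against the spread between hearts within a group. In eBayes that spread is drawn towards a value shared by all tested probes. The lead probe of a gene was the one with the highest mean among those well above background on 6 arrays and not saturated, where the gene had such a probe. Some listed genes had none, such as Bmp10 (well above background on 5 arrays) and Mybpc3 (saturated on 2), and their lead probe falls short of this rule. Genes were named by a rule, namely all 9 members, and of each related list the genes called and those with the largest and the smallest difference; Npr1, Pde5a, Nppc, Cyr61, Thra, Thrap1, Sln, Myl7, Myl4, Pvalb, Myh1, Myh2 and Myh4 were named beyond it for their role, and Vcl after its values were seen. Genes most like a member in pattern were the 3 nearest for each member ranging over 1 log2 unit. The 9 genes and the lists were chosen with earlier results of these data known. Of 194 listed genes 191 were matched to a probe, 3 of them by RefSeq accession. The lists of smooth muscle, endothelial, fibroblast, macrophage and ventricular markers had median log2 differences of 0.19, 0.07, -0.10, -0.11 and 0.02, between Cnn1 (-0.46) and Acta2 (0.44), Kdr (-0.27) and Pecam1 (0.26), Col1a1 (-0.33) and Tcf21 (0.14), Emr1 (-0.47) and Csf1r (0.0017), and Kcne1 (-0.10) and Irx4 (0.29). The smooth muscle median turned to -0.18 and the ventricular one to -0.07 without WT heart C, and the endothelial one to -0.04 without WT heart B.

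Alternatives were Agilent's processed signal at a common 75th percentile, the mean signal, normexp (offset 50) followed by quantiles, quantile or 75th percentile scaling, outlier spots kept, all probes, a filter on signals well above background on at least 3 arrays, the authors' own log2 values, eBayes with trend and robust settings, SAM, scan mode (low-gain slope of the headers) as a block, values within a slide or scan mode, the mean of the probes of a gene, and each heart left out. A loess fit against the median profile alone was added after seeing the data. The scripts were tested on simulated data. The number of arrays and the signal over background limit the precision of all values.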

Additional observations from a re-analysis of the deposited data

How the results depend on the processing

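Of 677 values recomputed under 23 settings, the counts of the 13 probes called stayed at 0 in both directions in all 38 recomputed, by limma and by SAM. Of 198 recomputed differences of the 9 genes 20 changed sign. A test was run for 171 of the 198, of which 0 passed the threshold, and the values within a slide or scan mode have none. Under 75th percentile scaling the log2 difference became 0.033 for Nppa, 0.13 for Myh7 and 0.16 for Fhl1. The same scaling moved Nppb to 0.31, Myh6 to 0.40, Actc1 to 0.46 and Ankrd1 to 0.24. With scan mode as a block Fhl1 became 0.058. That block also moved Myh7 to -0.37, Nppa to -0.05, Nppb to 0.23, Ankrd1 to 0.16 and the Myh7 minus Myh6 difference to -0.56. Nppa was 0.25 within the shared slide and 0.39 within the arrays with a slope of 1. Within the arrays of high slope Myh6 was -0.70, Myh7 0.31, Actc1 -0.035, Ankrd1 -0.82 and Fhl1 0.58. The Myh7 minus Myh6 difference between groups, -0.23 over all hearts, became -2.08 within the slide, 1.01 at high slope and -2.12 at a slope of 1, that of Acta1 minus Actc1 became 0.76 within the slide, and that of Nppb minus Nppa -0.20 at a slope of 1. The cause was not tested.

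Leaving out 1 heart at a time, the log2 difference ran from -0.52 to -0.04 for Nppa, 0.04 to 0.34 for Nppb, -0.15 to 0.47 for Myh6, -0.42 to 0.46 for Myh7, 0.21 to 0.99 for Acta1, -0.0054 to 0.43 for Actc1, -0.36 to 0.52 for Ankrd1, 0.21 to 0.67 for Ctgf and -0.30 to 0.21 for Fhl1. The lowest limma adjusted p among these was 0.54, for Acta1. Without TG-PKR1 heart A the sign changed for Myh6, Myh7 (0.46), Actc1, Ankrd1 and Fhl1, and the Myh7 minus Myh6 difference was 0.61. Signs also turned without other hearts. Over all omissions the sign changed 1 time each for Myh6 and Actc1, 2 times each for Myh7 and Ankrd1 and 3 times for Fhl1. The number of all probes called lower, 19, ran from 0 to 33, and none was called higher. It was 30 with normexp and quantile, 33 with quantile, 31 with trend and robust settings, 2 with loess against the median profile alone, and 0 with the 75th percentile in place of loess, all probes, the filter on 3 arrays, the table of the authors, or scan mode as a block. It was 8 without TG-PKR1 heart B and 0 without WT heart A, WT heart C, TG-PKR1 heart A or TG-PKR1 heart C. Of 378 list medians 56 moved by more than the spread between hearts. Under 75th percentile scaling the median became 0.27 for contractile isoforms, 0.16 for stretch genes, 0.11 for hypertrophy signaling and 0.14 for fetal channels. Among markers it became 0.30 for cardiomyocytes, 0.27 for ventricles, 0.12 for atria and 0.03 for fibroblasts under that scaling. Leaving out 1 heart, the median ran from -0.03 to 0.25 for the natriuretic system, -0.16 to 0.22 for contractile isoforms, -0.04 to 0.08 for stretch genes, -0.06 to 0.10 for hypertrophy signaling, -0.05 to 0.08 for fetal channels, -0.17 to 0.0019 for immediate early genes and -0.24 to 0.16 for the myosin regulators. Among markers it ran from -0.13 to 0.22 for cardiomyocytes, -0.20 to 0.08 for atria, -0.07 to 0.12 for ventricles, -0.18 to 0.51 for smooth muscle and -0.04 to 0.09 for endothelium. The other lists kept their sign, with 0.07 to 0.16 for the adult programme, -0.11 to -0.06 for injury, 0.06 to 0.17 for skeletal muscle, -0.21 to -0.01 for fibroblasts, -0.18 to -0.04 for macrophages and -2.04 to -1.82 for adipocytes. Slide as a random block could not be fitted, since 5 slides carried 6 arrays. No paired test was run. The titles of WT heart B and TG-PKR1 heart A share the number before the point, whose meaning is not stated. These hearts also shared a slide. No other WT title shares that number with a transgenic one. Signal over background, lowest on the array of WT heart B, limits dim probes more than the 13 probes here.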
